A study of Mus musculus with 6 samples.

Results

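The genes described here are 38 genes of mitosis, a list fixed by symbol. Its rule used no measured value, but the list was chosen with earlier results of these data known. Of the 38 genes, 37 were measured among 21640 probe sets that carry a single gene symbol in the platform table and name 19937 genes. For each gene the probe set with the highest mean over the 6 arrays was kept. *Ccnb1*, which encodes cyclin B1, had no such probe set and was not analysed here. The arrays, Affymetrix Mouse Gene 1.0 ST, measured RNA of plasmacytoid dendritic cells (pDCs), the interferon-producing dendritic cells, that had been grown from total bone marrow of 3 C57BL/6 mice in Flt-3L at 25 ng/ml and sorted as B220+ CD11c+ cells. All cultures carried Gfi1f/f; Gfi1bf/f; ERCre, that is, floxed alleles of the repressor genes *Gfi1* and *Gfi1b* with a Cre recombinase that tamoxifen activates. Each mouse gave an untreated culture (WT) and a culture treated with 1 µM tamoxifen during differentiation (KO), so the study asked what deleting both genes does to pDC expression. The WT cultures therefore carry the floxed alleles and Cre as well, tamoxifen without Cre was not on these arrays, and the study's own genotyping PCR found the deletion to be inefficient. The study describes its Cre as ERT2-Cre inserted at *Rosa26*, a locus that is active in most cell types.

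Mitosis genes are transcribed in a wave late in the cell cycle, when the DNA has been copied, and their RNAs are low in resting cells. The wave includes the cyclin-dependent kinase that starts mitosis, the kinases and checkpoint proteins that govern chromosome attachment, the motors that build the spindle and the proteins that divide the cell. Their summed level is widely read as a measure of how many cells of a sample are dividing. Mature pDCs rarely divide, whereas their bone marrow progenitors do, so a sorted pDC culture can hold both. In a bulk sample such as these, fewer dividing cells and less of each RNA per dividing cell cannot be told apart.

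Many of these genes are switched through a pair of promoter elements, the cell cycle genes homology region (CHR, searched here as TTTGAA) and CCAAT, bound by the DREAM and MuvB complexes and by NF-Y. Both were searched on both strands of the RefSeq promoter windows of GRCm38.p6, 300 bases each with 250 of them before the start of transcription. The windows of 33 of the 38 genes were matched, 35 in all. TTTGAA was in 27 of the 35 windows (77.1%) and CCAAT also in 27, and 24 windows (68.6%) held both. Over all 32851 windows of the table the shares were 17.9% for TTTGAA, 37.4% for CCAAT and 6.95% for both. The position differed too, since 26 of the 35 TTTGAA matches in the mitosis windows (74.3%) lay within 50 bases of the start, against 25.3% of the 6737 matches in all windows. The 100 bases that precede the start are printed below for 5 genes whose array values are given in full and which hold both motifs in that stretch. Capitals mark TTTGAA or its reverse complement and CCAAT or its reverse complement. In order, they are from chr2:164769829-164769928 (plus strand, *Ube2c*), chr3:159495333-159495432 (plus strand, *Depdc1a*), chr10:69352913-69353012 (minus strand, *Cdk1*), chr11:99024190-99024289 (minus strand, *Top2a*) and chr19:37376282-37376381 (plus strand, *Kif11*), each written 5′ to 3′ on the strand of the gene.
Ube2c: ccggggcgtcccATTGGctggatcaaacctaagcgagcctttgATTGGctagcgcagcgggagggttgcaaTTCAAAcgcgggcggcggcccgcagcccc
Depdc1a: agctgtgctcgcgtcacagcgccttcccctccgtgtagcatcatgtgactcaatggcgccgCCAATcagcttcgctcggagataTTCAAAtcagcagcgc
Cdk1: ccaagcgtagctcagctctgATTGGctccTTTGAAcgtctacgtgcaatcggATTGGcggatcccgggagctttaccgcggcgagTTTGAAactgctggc
Top2a: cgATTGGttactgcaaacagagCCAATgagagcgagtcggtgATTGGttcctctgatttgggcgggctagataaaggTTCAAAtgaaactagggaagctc
Kif11: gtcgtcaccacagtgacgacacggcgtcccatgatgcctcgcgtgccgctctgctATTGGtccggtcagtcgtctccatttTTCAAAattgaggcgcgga

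In these stretches *Cdk1* holds 2 matches to TTTGAA and *Top2a* holds 3 to CCAAT. A match is a run of letters and not a measured binding site.

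The WT and KO cultures differed in the mitosis genes of mouse 1, and by much less and mostly in the opposite direction in mice 2 and 3. In mouse 1 all 37 genes were higher in the KO than in the WT culture, with a median log2 difference (KO minus WT) of 1.30, or 2.46-fold, and a range from 0.61 for *Kif20a* to 2.03 for *Kif11*. In mouse 2 the median was -0.23, or 0.853-fold, and in mouse 3 it was -0.22, or 0.857-fold. The medians over all 21640 probe sets were -0.00, 0.02 and 0.04 in mice 1, 2 and 3. With 1 WT and 1 KO array per mouse, no test within a mouse was possible.

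The share of all probe sets that were higher in the KO culture of mouse 1 was 49.8%, against 37 of 37 mitosis genes. In mouse 2, 35 mitosis genes were lower in the KO culture (47.6% of all probe sets) and the exceptions were *Depdc1a* and *Ect2*. In mouse 3, 29 were lower (43.7% of all probe sets), 7 were higher and *Ube2c* had the same value in both cultures. The combination of higher in mouse 1 and lower in both other mice held for 28 mitosis genes and for 11.4% of all probe sets. The KO culture of mouse 1 was at least 2-fold higher for 29 mitosis genes, against 0.518% of all probe sets. These 0.518% are 112 probe sets of 108 genes, of which 29 are the mitosis genes described here. No mitosis gene was at least 2-fold lower in mouse 2 (0.864% of all probe sets) or in mouse 3 (1.05%). The difference was under 0.5 in absolute size for 31 mitosis genes in mouse 2 and for 28 in mouse 3.

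**Figure D1:**
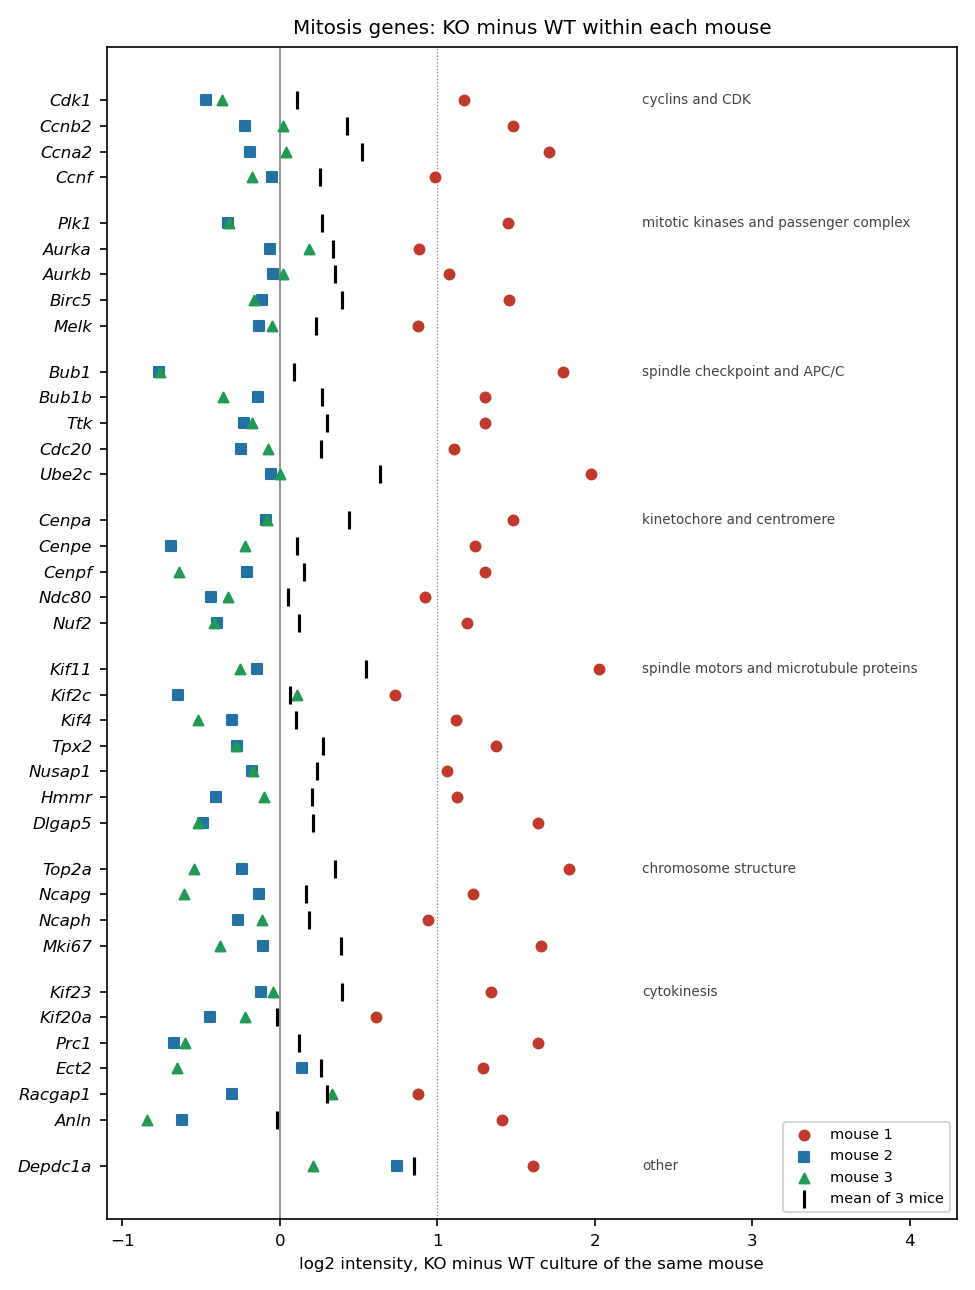
KO minus WT log2 difference within each of the 3 mice (x axis) for the 37 mitosis genes (y axis, grouped by role), with 1 symbol per mouse, a black tick at the mean of the 3 and a dotted line at a 2-fold difference. The circles of mouse 1 all lie to the right, between 0.61 and 2.03, and the squares and triangles of mice 2 and 3 mostly lie below 0.

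The mean difference over the 3 mice joined these opposite directions. It was above 0 for 35 mitosis genes (55.9% of all probe sets) and below 0 for *Kif20a* and *Anln*, with a median of 0.26 against 0.03 for all probe sets. None of the 37 passed an adjusted p under 0.05 in the limma test of KO against WT (0% of all probe sets passed), and none passed with the mouse as a block (0%). The adjusted p-values of the mitosis genes ran from 0.69 to 0.996, and from 0.31 to 0.99 with the mouse as a block. At an unadjusted p under 0.05, *Depdc1a* alone was higher in KO (5.14% of all probe sets were) and no mitosis gene was lower (1.9%). The block gave the same counts, 1 higher (7.46%) and 0 lower (5.99%). Only *Depdc1a* was higher in the KO culture of all 3 mice, a pattern seen for 21.3% of all probe sets, and no mitosis gene was lower in all 3 (17.4%). *Depdc1a* was also the only mitosis gene whose KO values all lay above all its WT values (10.2% of all probe sets), and none had all its KO values below (4.65%). The 3 within-mouse differences of a mitosis gene had a median SD of 0.918, against 0.176 over all probe sets. The difference of mouse 1 was the largest of the 3 in absolute size for all 37 mitosis genes and for 25.7% of all probe sets.

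Without both arrays of mouse 1, 34 mitosis genes had a mean difference below 0 (43.5% of all probe sets) and 3 above 0, with a median of -0.25 (0.04 for all probe sets). In the limma fit to these 4 arrays 108 probe sets (0.499%) passed an adjusted p under 0.05, none of them a mitosis gene, and the smallest adjusted p of a mitosis gene was 0.056, for *Bub1*. At an unadjusted p under 0.05, 11 were lower in KO (*Cdk1*, *Plk1*, *Bub1*, *Cenpe*, *Nuf2*, *Kif4*, *Dlgap5*, *Top2a*, *Kif20a*, *Prc1* and *Anln*), against 7.79% of all probe sets in this fit. *Depdc1a* was higher, against 9.77% of all probe sets. Mouse 1 was the mouse known to go the other way, so its removal favours lower values in KO. Without mouse 2, and likewise without mouse 3, 0 mitosis genes were lower at that p in the limma fit. Both cultures of mouse 1 contributed to its difference. The WT array of mouse 1 was the lowest of the 6 arrays for 31 mitosis genes (16.3% of all probe sets) and its KO array was the highest for 36 (19.1%), and both held for 30 (2.14%). The median mitosis gene was 0.66 lower on the log2 scale in the WT array of mouse 1 than in the mean of the WT arrays of mice 2 and 3, and 0.86 higher in its KO array than in the mean of the other KO arrays. The arrays of mouse 1 lay on opposite sides of their group means for all 37 mitosis genes and for 32.8% of all probe sets.

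The order of the arrays by the median intensity of the mitosis genes was WT of mouse 1 (62.6), KO of mouse 3 (73.1), KO of mouse 2 (82.1), WT of mouse 3 (95.3), WT of mouse 2 (103.5) and KO of mouse 1 (159.6). The 4 arrays of mice 2 and 3 thus lay between the arrays of mouse 1. On the log2 scale, WT of mouse 2 minus WT of mouse 3 had a median of 0.15, and KO of mouse 2 minus KO of mouse 3 one of 0.11. These medians keep the sign, so differences in opposite directions offset each other. The array medians over all 34760 deposited probe sets were 69.0 to 70.5 for WT and 72.4 to 72.9 for KO, each KO median above each WT median. The mitosis genes thus differed between arrays of nearly equal median level. Of the 37, 30 had a mean log2 level above that of an intensity of 61.5, the 95th percentile of 1208 probe sets of olfactory and vomeronasal receptor genes. That percentile was taken as a background level. Below it were *Ccnf*, *Melk*, *Ttk*, *Nuf2*, *Kif4*, *Anln* and *Depdc1a*.

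**Figure D2:**
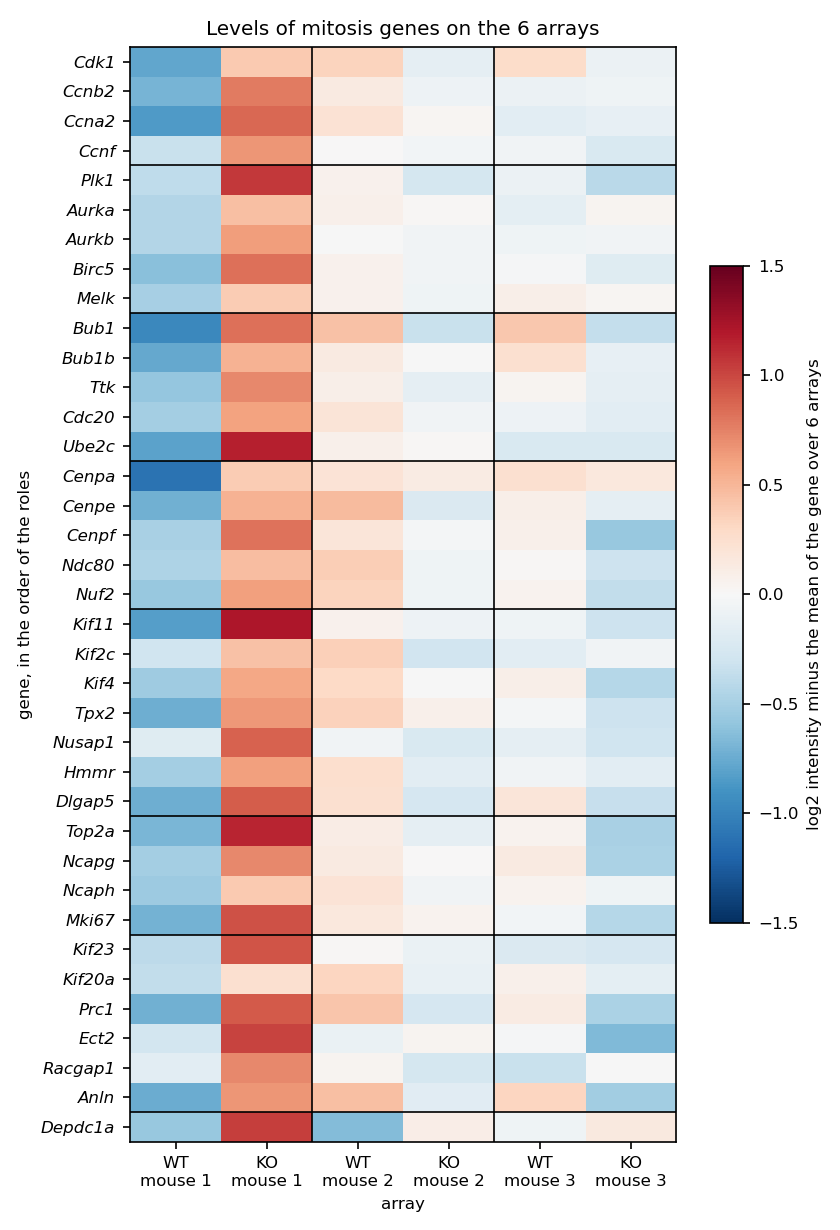
Heat map of the 37 mitosis genes (rows, grouped by role) on the 6 arrays (columns, WT and KO of each mouse), with colour giving the log2 intensity minus the mean of that gene over the 6 arrays (red above, blue below). The column of WT of mouse 1 is blue, that of KO of mouse 1 is red for all 37 genes, and the columns of mice 2 and 3 are paler.

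Among the cyclins, *Cdk1*, the kinase that starts mitosis, had intensities of 88.2, 191 and 184 in WT pDCs of mice 1, 2 and 3 and of 198, 138 and 143 in KO pDCs. Its level was thus 2.25-fold higher in mouse 1 and lower in the others, and the mean log2 difference was 0.11 (SE 0.33, limma adjusted p = 0.95). Unless the block is named, the SE and adjusted p of single genes here and below are from the limma fit without the mouse as a block. *Ccna2*, the cyclin of DNA synthesis and early mitosis, had 104, 217 and 167 in WT and 339, 190.4 and 172 in KO pDCs, a difference of 0.52 (SE 0.36, adjusted p = 0.76). Its groups overlapped, because WT of mouse 2 exceeded KO of mice 2 and 3. *Ccnb2*, a B-type cyclin, had within-mouse differences of 1.48, -0.22 and 0.02. *Ccnf*, an F-box protein that marks substrates for degradation, had 0.99, -0.05 and -0.18.

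The kinases of the spindle poles and of the passenger complex had a median difference of 1.07 in mouse 1, the lowest of the roles. *Aurka*, the Aurora kinase of the spindle poles, had intensities of 99.3, 142 and 121 in WT and 183, 136 and 138 in KO pDCs. This was 1.84-fold higher in mouse 1, and the mean difference was 0.33 (SE 0.18, adjusted p = 0.73). *Aurkb*, the Aurora kinase of the passenger complex, had within-mouse differences of 1.07, -0.05 and 0.02, and *Birc5*, the survivin subunit of that complex, had 1.45, -0.12 and -0.16. *Plk1*, the Polo kinase, had 1.45, -0.33 and -0.32. *Melk*, another kinase of dividing cells, had 0.88, -0.13 and -0.05.

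The checkpoint genes and those of the anaphase-promoting complex (APC/C), a ubiquitin ligase, were each at least 2-fold higher in the KO culture of mouse 1 (5 of 5). *Ube2c*, the ubiquitin-conjugating enzyme of the APC/C, had intensities of 125, 229 and 185 in WT and 489.7, 219.8 and 185 in KO pDCs. It was thus 3.93-fold higher in mouse 1 and nearly level in the others, with a mean difference of 0.64 (SE 0.41, adjusted p = 0.75). *Bub1*, a checkpoint kinase at the kinetochore, had the widest spread, with within-mouse differences of 1.80, -0.77 and -0.76. *Bub1b*, which encodes the checkpoint protein BubR1, had 1.30, -0.14 and -0.36, and *Ttk*, the kinase Mps1, had 1.30, -0.23 and -0.18. *Cdc20*, the activator that the checkpoint holds back, had 1.10, -0.25 and -0.08.

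Among the kinetochore and centromere genes, *Cenpa*, the histone variant of centromeres, had intensities of 121, 301 and 308 in WT and 338, 282 and 291 in KO pDCs. Here the WT array of mouse 1 stood lowest and the other 5 lay close together, and the mean difference was 0.44 (SE 0.37, adjusted p = 0.80). *Cenpe*, a kinetochore motor, had within-mouse differences of 1.24, -0.69 and -0.22. *Cenpf*, a large kinetochore protein, had 1.30, -0.21 and -0.64. *Ndc80* and *Nuf2*, which together bind the spindle microtubules, had 0.92, -0.44 and -0.33 and 1.19, -0.40 and -0.42.

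Of the 7 spindle genes, 6 were at least 2-fold higher in the KO culture of mouse 1. *Kif11*, the kinesin that separates the spindle poles, had intensities of 73.2, 135 and 124 in WT and 299, 122 and 104 in KO pDCs. Its 4.08-fold difference in mouse 1 was the largest of the 37 genes, and the mean difference was 0.54 (SE 0.44, adjusted p = 0.79). *Kif2c*, a kinesin that takes microtubules apart, had within-mouse differences of 0.73, -0.65 and 0.11 and was the spindle gene under 2-fold. *Kif4*, a chromosome-bound kinesin, had 1.12, -0.30 and -0.52. *Tpx2*, which activates Aurora A at the spindle, had 1.37, -0.27 and -0.28, and *Dlgap5*, which stabilises spindle microtubules, had 1.64, -0.49 and -0.52. *Nusap1* and *Hmmr*, both microtubule-binding proteins, had 1.06, -0.18 and -0.17 and 1.12, -0.40 and -0.10.

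Genes of chromosome structure had the highest median in mouse 1 of the roles with several genes, 1.44. *Top2a*, the topoisomerase that untangles sister chromatids, had intensities of 139, 243 and 234 in WT and 497, 206 and 160.2 in KO pDCs, a mean difference of 0.35 (SE 0.45, adjusted p = 0.87). *Mki67*, which encodes the proliferation marker Ki-67, had 106, 193 and 167 in WT and 334, 179 and 128 in KO pDCs, a mean difference of 0.39 (SE 0.39, adjusted p = 0.83). Both were over 3-fold higher in mouse 1 and lower in mice 2 and 3. *Top2a* has a second probe set with a mean intensity of 35.6, below the receptor genes' 95th percentile, and within-mouse differences there of 0.52, -0.17 and 0.16. The condensin subunits *Ncapg* and *Ncaph* had 1.23, -0.13 and -0.61 and 0.94, -0.27 and -0.11.

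The genes of cytokinesis included both with a negative mean difference. *Kif23*, a subunit of centralspindlin, had intensities of 118, 157 and 134 in WT and 299.7, 145 and 130.1 in KO pDCs, a mean difference of 0.39 (SE 0.32, adjusted p = 0.80). *Kif20a*, a kinesin of the central spindle, had 62.6, 102 and 85.4 in WT and 95.6, 75.1 and 73.1 in KO pDCs, a mean difference of -0.02 (SE 0.21, adjusted p = 0.99). For *Kif20a* the highest of the 6 arrays was WT of mouse 2, the only mitosis gene where KO of mouse 1 did not rank first. *Anln*, the scaffold of the contractile ring, had 36.6, 84.2 and 77.1 in WT and 97.3, 54.7 and 43.0 in KO pDCs, a mean difference of -0.02 (SE 0.42, adjusted p = 0.996). *Prc1*, which bundles microtubules, had within-mouse differences of 1.64, -0.67 and -0.60. *Racgap1*, the partner of *Kif23*, had 0.88, -0.31 and 0.33, and *Ect2*, which activates RhoA at the division site, had 1.29, 0.14 and -0.65.

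*Depdc1a*, a DEP domain gene of dividing cells, stood apart from the rest. Its intensities were 18.9, 17.9 and 26.8 in WT and 57.6, 30.0 and 31.0 in KO pDCs, so that all KO values lay above all WT values. The within-mouse differences were 1.61, 0.74 and 0.21, and the mean was 0.85 (SE 0.29, adjusted p = 0.69, and 0.31 with the mouse as a block). All 6 values lay below the receptor genes' 95th percentile of 61.5, within the range of background. Its second probe set, with a mean intensity of 17.8, had 0.80, -0.07 and 0.02.

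By role, the median differences in mouse 2 ran from -0.40 for the kinetochore genes to -0.12 for the kinases, and in mouse 3 from -0.46 for the genes of chromosome structure to -0.05 for the kinases. *Depdc1a*, alone outside the roles, was above 0 in both. By its median, each role thus held the pattern of the whole, high in KO of mouse 1 and below 0 in the other mice. Single genes within the roles did not all follow it, as *Ect2* was at 0.14 in mouse 2, and *Aurka* at 0.19 and *Racgap1* at 0.33 in mouse 3. Of the 32 measured genes with a promoter window, the 22 whose windows held both motifs had a median difference in mouse 1 of 1.30, from 0.88 to 2.03, and the 10 others had 1.13, from 0.73 to 1.80. These ranges overlapped along most of their length.

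**Figure D3:**
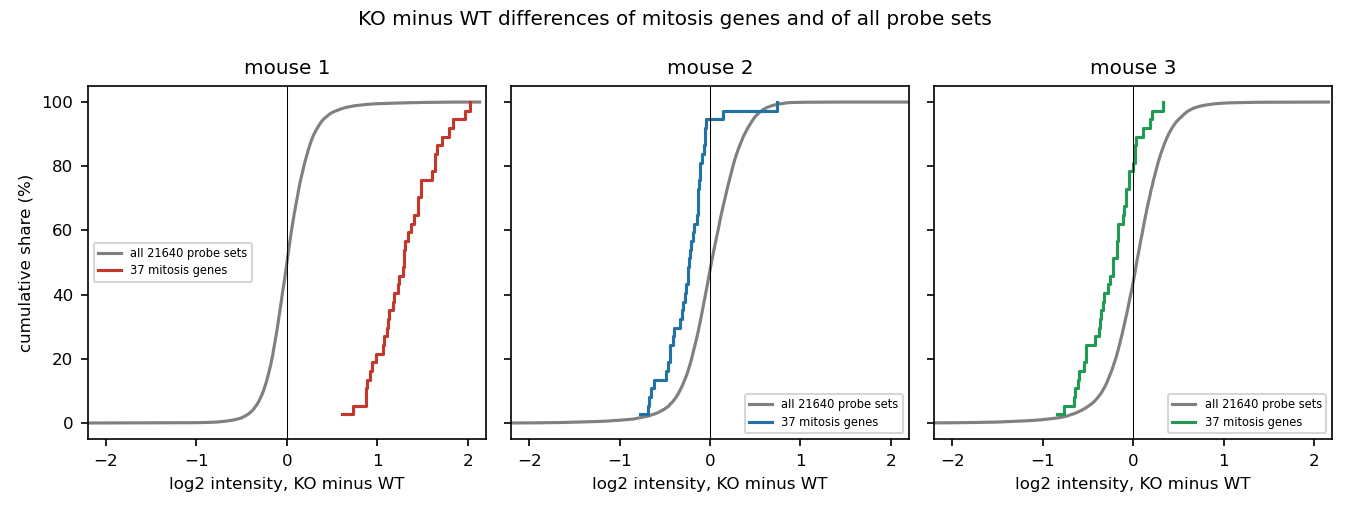
Cumulative share in percent (y axis) of the KO minus WT log2 difference (x axis) within each mouse, for the 37 mitosis genes (coloured) and for all 21640 probe sets (grey). In mouse 1 the curve of the mitosis genes starts at 0.61, where that of all probe sets is near its top, and in mice 2 and 3 it lies left of the grey curve along most of its length, with medians of -0.23 and -0.22.

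The other cell cycle genes followed in graded size. Of 84 other mitosis genes, 81 were measured, with medians of 0.63, -0.14 and -0.08 in mice 1, 2 and 3. At an unadjusted p under 0.05, 4 were higher (5.14% of all probe sets) and 3 lower (1.9%), or 6 (7.46%) and 2 (5.99%) with the mouse as a block, and none passed the adjusted p in either fit. The 4 of 81 are near the share of all probe sets. *Pbk*, *Depdc1b* and *Ckap2l* had the smallest p-values. *Pbk*, a mitotic kinase, had within-mouse differences of 1.14, 0.36 and 0.23. *Depdc1b*, a relative of *Depdc1a*, had 0.85, 0.20 and 0.34, and *Ckap2l*, a spindle protein, had 0.73, 0.06 and 0.43. The mean levels of all of these lay below the receptor genes' 95th percentile, taken as background. In their windows both motifs occurred in 33.8% of 77, against 7.69% of 52 for the genes of DNA replication and nucleotide synthesis. Of the latter, 52 of 53 were measured, with medians of 0.42, -0.08 and -0.10. At an unadjusted p under 0.05, 3 were higher (5.14% of all probe sets), again near that share, and 0 lower (1.9%). With the mouse as a block, 5 were higher (7.46%) and 1 lower (5.99%). The 3 higher without the block were *Cdc6*, *Mcm10* and *Rrm2*. *Cdc6*, which loads the replicative helicase, had 0.97, 0.11 and 1.32. *Mcm10*, which helps start replication forks, had 0.71, 0.27 and 0.20, and *Rrm2*, a subunit of ribonucleotide reductase, had 1.47, -0.04 and 0.52. The mean levels of *Cdc6* and *Mcm10* lay below the background level, and that of *Rrm2* lay above it.

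Genes that act before or upon this wave had smaller median differences in mouse 1. The 25 regulators of cell cycle transcription had medians of 0.04, -0.08 and -0.03. At an unadjusted p under 0.05, 1 was higher (5.14% of all probe sets) and 0 lower (1.9%). With the mouse as a block, 1 was higher (7.46%) and 1 lower (5.99%). Among the regulators, the repressors *E2f7* and *E2f8*, themselves made in dividing cells, had 0.40, 0.15 and 0.36 and 1.51, 0.23 and 0.01, and *Rbl2*, the p130 pocket protein of resting cells, had -0.39, -0.20 and -0.10. The CDK inhibitors and antiproliferative genes (14 of 16 measured) had medians of 0.08, -0.11 and -0.00, with none at an unadjusted p under 0.05 in either direction. With the mouse as a block, 3 of these were higher (7.46% of all probe sets), *Cdkn1c*, *Cdkn2c* and *Cdkn2d*, and 0 lower (5.99%), with none past the adjusted p. *Cdkn1c*, the inhibitor p57, had 0.28, 0.85 and 0.89, *Cdkn2c*, the inhibitor p18, had 0.20, 0.15 and 0.67, and *Ccng2*, an atypical cyclin of resting cells, had -0.13, -0.20 and -0.33. The list of G1 cyclins and their kinases held 8 genes. It included *Cdk7* and *Ccnh*, which are not particular to G1, while *Ccne1* and *Ccne2* were counted with the replication genes. The medians were 0.14, -0.14 and 0.02, likewise with none at that threshold. With the mouse as a block, 1 was higher (7.46% of all probe sets), *Ccnd1*, and 0 lower (5.99%). Of the 8, *Cdk6* had -0.14, -0.09 and -0.62, *Ccnh* had -0.14, -0.34 and 0.04, and *Ccnd3* had 0.24, 0.13 and 0.09. The lists of mitosis and replication genes together held 47 of the 100 probe sets with the largest difference in mouse 1, and 28 of these were the mitosis genes described here.

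**Figure D4:**
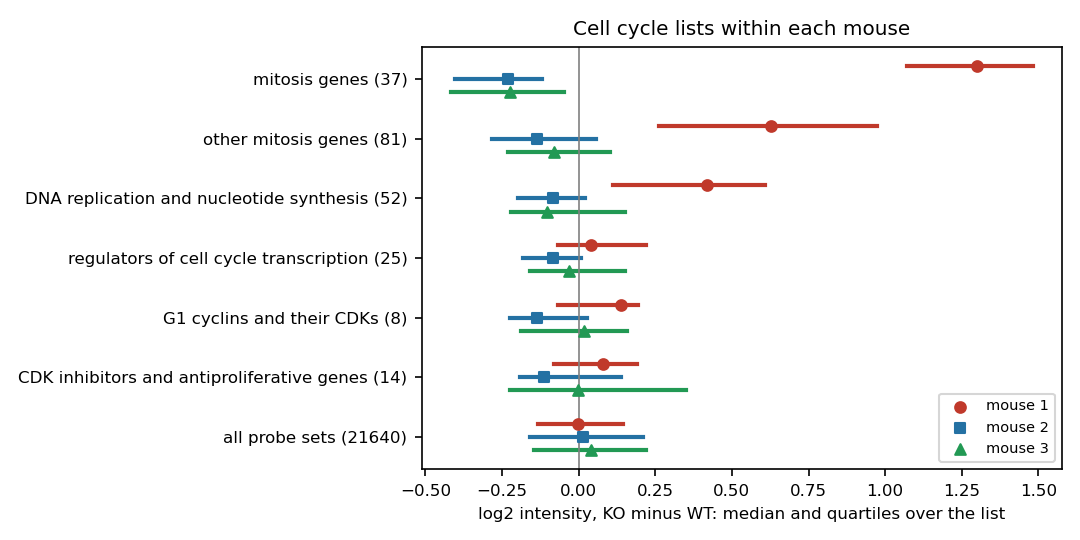
KO minus WT log2 difference (x axis) of 6 lists of cell cycle genes and of all probe sets (y axis, number of genes or probe sets in parentheses), with a symbol at the median and a bar from the first to the third quartile for each mouse. The mitosis genes have the highest median in mouse 1 (1.30), followed by the other mitosis genes (0.63) and the genes of DNA replication (0.42).

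Markers of other cells in the cultures also differed between the arrays, in another pattern. All 17 pDC markers lay above the receptor genes' 95th percentile on all arrays, and their summed intensity was 24075 to 55484 in WT and 34710 to 53013 in KO pDCs, highest in both cultures of mouse 1. The 12 macrophage and monocyte markers, all above that level too, summed to 9447 and 7938 in the WT and KO culture of mouse 1 and to 28030 to 35785 in the other arrays. The 14 stromal markers summed to 861 and 766 in the WT and KO culture of mouse 1, to 12124 and 13551 in WT of mice 2 and 3 and to 4655 and 4998 in KO, with *Lum* above the level on no array. The 11 neutrophil markers summed to 1422 and 525 in mouse 1, to 9121 and 11883 in the other WT arrays and to 2632 and 4885 in the other KO arrays, with *Cxcr2* and *Ly6g* above the level on no array. The 10 B lineage markers summed to 1254 and 1659 in mouse 1 and to 3637 to 5546 in the other arrays. In mouse 1, where the mitosis genes differed by a median of 2.46-fold, the macrophage, stromal, neutrophil and B lineage sums were thus lower in both cultures than in the cultures of mice 2 and 3.

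The 11 progenitor markers summed to 1355 to 2539 in WT and 2022 to 2480 in KO pDCs, with medians of 0.24, 0.13 and 0.35 in the 3 mice, and *Cd34*, *Ctsg* and *Cpa3* were above the level on no array. The 10 markers of conventional DCs summed to 6748 to 7798 in WT and 7012 to 7355 in KO pDCs, with 1 above the level on no array. The 10 T and NK markers summed to 856 to 1180 in WT and 1140 to 1666 in KO pDCs, with 5 above the level on no array, and the 7 erythroid markers to 987 to 1791 in WT and 1289 to 1953 in KO pDCs, with 3. The progenitor, T and NK and erythroid sums each held 1 gene far brighter than the rest. *Flt3*, also on the conventional DC list, had 526 to 1767, and the other progenitor markers reached at most 271. *Cd4* had 385 to 1217 (other T and NK markers at most 159) and *Tfrc* 647 to 1598 (other erythroid markers at most 91.8). Bright single genes also weighed in other sums, as *Lyz2* (1634 to 10496) on the macrophage list and *Cd79b* (459 to 1946) on the B lineage list. The sums of these lists therefore do not measure the amount of the named cells. The part of any of these cells in the differences of the mitosis genes was not tested.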

How the data were processed

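RNA of sorted pDCs from 3 WT and 3 KO cultures, 200 ng each, was put on Affymetrix Mouse Gene 1.0 ST arrays. The authors deposited probe set intensities on a linear scale (3.07 to 19106) for 34760 probe sets. The medians of the arrays lay close together, between 69.0 and 72.9. Whether and how the authors normalized the values was not stated in the sources used here. The number of arrays limits the precision.

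The platform table pairs 21640 probe sets with 1 symbol, 1321 with several and 11799 with none. 21620 of the 21640 carry a symbol found in RefSeq for GRCm38.p6. Their log2 intensities were compared, KO minus WT, with the two-sided moderated test of limma (version 3.58.1, lmFit and eBayes, under R 4.3.3), and p-values were adjusted by Benjamini-Hochberg over all 21640 at a threshold of 0.05. Differences within a mouse, counts and medians were computed in Python 3.11.15. The labels pair the cultures by mouse. As deviations from the group means, WT and KO arrays of the same mouse correlated over all probe sets with r of 0.81, 0.51 and 0.67, in each case the best match among the mice. The mouse was a block in an alternative fit. Only the limma fit, with and without the block, was tested on simulated data, in which WT and KO arrays of a mouse shared part of their deviation. The opposite deviations of the mitosis genes in mouse 1 were thus not simulated. The within-mouse counts, list medians and motif search were not tested in this way.

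The genes, the lists and the tests were chosen with earlier results of these data known. All mitosis genes are named. Values in all arrays are given for *Mki67*, *Top2a* and *Cdk1* (the rule also lists *Ccnb1*, not analysed here), for the gene with the smallest p in each role, and for the 2 with the highest and the 2 with the lowest mean difference. Of other cell cycle lists, up to 3 genes with the smallest p are named (*Cdkn2d* and *Ccnd1* were added after their values were seen). Lists were described by counts and medians and not tested. The alternatives tried were the block, centring on the median, a quantile normalization and a floor at the 20th percentile. Others were leaving out probe sets below the median level, averaging the probe sets of a gene and a trended and robust fit. Each array or mouse was also left out.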

Additional observations from a re-analysis of the deposited data

How the results depend on the processing

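With the mouse as a replicate block, 0 mitosis genes passed the adjusted p and 1 was higher at an unadjusted p under 0.05, as without it. That gene, *Depdc1a*, was above this p after a quantile normalization, with the floor and when probe sets of a gene were averaged (0 genes each). When dim probe sets, its own among them, were left out, *Depdc1a* was not tested (0 genes). Without dim probe sets, 183 of 10820 probe sets were higher and 317 lower at that p. In the main setting 1113 and 412 of 21640 were, so the share higher depended on dim probe sets. Leaving out arrays or a mouse gave 0 to 1 higher and 0 to 11 lower genes at that p, and 0 to 108 probe sets passing the adjusted p. The number higher in all 3 mice was 4 after quantile normalization and 0 without dim probe sets. Higher in both mice that remained were 1 gene without mouse 1, 7 without mouse 2 and 2 without mouse 3, against 37.5%, 30.5% and 29.2% of all probe sets. The number at least 2-fold higher in mouse 1 was 18 of 22 without dim probe sets. All tested genes stayed higher in mouse 1, and the medians of mice 2 and 3 stayed below 0, under the quantile, centring, floor, averaging and dim probe set settings. The counts of lower genes moved more. After the quantile normalization 29 genes were lower in mouse 2 and 25 in both mice 2 and 3, against 35 and 28 in the main setting.

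The mean over the mice depended on mouse 1. The median difference was 0.04 without its WT array, -0.01 without its KO array, -0.25 without both and up to 0.52 when other arrays were left out. Over all settings that left out arrays, the mean difference ran from -0.42 to 0.40 for *Cdk1*, -0.076 to 0.87 for *Ccna2*, -0.029 to 0.99 for *Ube2c*, -0.086 to 0.70 for *Cenpa*, -0.20 to 0.94 for *Kif11*, -0.39 to 0.80 for *Top2a*, -0.24 to 0.78 for *Mki67*, -0.081 to 0.65 for *Kif23*, -0.33 to 0.19 for *Kif20a* and -0.73 to 0.39 for *Anln*. For *Aurka* and *Depdc1a* it stayed above 0.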
